A study of Mus musculus with 7 samples.

Results

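Transcripts of 10 genes of transforming growth factor beta (TGF-beta) signalling were measured in mouse endometrial epithelium with and without the chromatin remodeller gene Brg1. The genes were picked by name, as members of the pathway, at a time when earlier results of these data were known. They are the TGF-beta ligands Tgfb1, Tgfb2 and Tgfb3, the activin subunits Inhba and Inhbb, the bone morphogenetic protein (BMP) ligands Bmp2, Bmp4 and Bmp7, and the feedback genes Smad7 and Id1. They are 10 of the 53379 genes counted, and all 10 passed the filter on low counts that left 14610 genes for testing.

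Brg1, officially Smarca4, encodes a motor subunit of SWI/SNF, which moves nucleosomes. The 4 mutant libraries each came from a single CD-1 mouse, aged 120 days, of the genotype LtfCre 0/+; Brg1 fl/fl, in which a Cre recombinase expressed from the lactoferrin gene (Ltf) acts on floxed Brg1. The 3 control libraries came from wild-type CD-1 mice without Cre or floxed alleles, each from pooled mice, and are reanalysed samples of an earlier series whose label names a first flow cell. The sources used here do not give the age of the controls. In both groups uteri were digested and the epithelial cells were pulled out with an EpCAM antibody and magnetic beads before mRNA sequencing. Genotype, pooling, the Cre itself and the set of libraries differ between the groups together and cannot be told apart.

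TGF-beta superfamily ligands are secreted dimers that bind pairs of type I and type II serine/threonine kinase receptors. TGF-beta and activin receptors phosphorylate SMAD2 and SMAD3, BMP receptors phosphorylate SMAD1, SMAD5 and SMAD9, and both kinds of SMAD enter the nucleus with SMAD4. TGF-beta is held in the matrix in a latent form until integrins or proteases free it, and activins and BMPs are caught by secreted antagonists such as follistatin and noggin. In the uterus the ligands pass between epithelium and stroma, and BMP2 of the stroma is needed for decidualisation.

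The 250 bases before the transcription start are shown for Inhbb, Tgfb1 and Tgfb2, the members whose values carry the results on lower levels given further on. The sequences are from RefSeq, build GRCm38.p6, whose table matched 5 of the 10 members, and their starts coincide with the gene starts of GENCODE M21. Each is written 5′ to 3′ on the strand of the gene, with motif matches in capitals. The windows are chr1:119422249-119422498 on the minus strand for Inhbb, chr7:25686752-25687001 on the plus strand for Tgfb1 and chr1:186705990-186706239 on the minus strand for Tgfb2.
Inhbb: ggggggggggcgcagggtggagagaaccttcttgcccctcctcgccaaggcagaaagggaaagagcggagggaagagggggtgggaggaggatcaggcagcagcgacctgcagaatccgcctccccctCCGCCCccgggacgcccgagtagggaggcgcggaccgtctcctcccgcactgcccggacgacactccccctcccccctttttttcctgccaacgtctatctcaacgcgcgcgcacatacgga
Tgfb1: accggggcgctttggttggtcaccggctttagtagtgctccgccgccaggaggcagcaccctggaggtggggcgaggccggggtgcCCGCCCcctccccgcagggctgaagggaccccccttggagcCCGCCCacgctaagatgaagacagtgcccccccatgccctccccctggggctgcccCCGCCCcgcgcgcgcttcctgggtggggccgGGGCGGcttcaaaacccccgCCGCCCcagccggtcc
Tgfb2: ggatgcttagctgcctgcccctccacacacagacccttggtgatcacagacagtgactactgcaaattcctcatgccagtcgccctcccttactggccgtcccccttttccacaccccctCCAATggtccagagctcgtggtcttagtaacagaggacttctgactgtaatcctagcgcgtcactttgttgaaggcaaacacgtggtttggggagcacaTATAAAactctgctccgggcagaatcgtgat

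Motifs were searched on both strands in 32851 mouse promoters of this length. Tgfb1 held 5 GC boxes (GGGCGG, read as CCGCCC on the other strand) and Inhbb held 1, a motif that 32.7% of the promoters held. Tgfb2 held none, but a TATA box (TATAAA, in 12.4% of the promoters) and a CCAAT box (CCAAT, in 33.8%). The window was 75.2% G and C in Tgfb1, 68.0% in Inhbb and 53.6% in Tgfb2, with a median of 52.4% over all promoters. An AP-1 site (TGANTCA), a cyclic AMP response element (TGACGTCA), the palindromic Smad site (GTCTAGAC) and the BMP-responsive Smad site (GGCGCC) had no match in the Inhbb, Tgfb1 or Tgfb2 window. They had a match in 6.75%, 1.55%, 0.167% and 9.59% of the promoters. No 2 of the motifs overlapped in the windows shown. A match is a description of the sequence only.

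The libraries held 12436971 to 13364080 gene reads in mutants and 21372036 to 25862245 in controls. Values are counts per 1000000 gene reads (CPM) scaled with the trimmed mean of M-values (TMM), and RPKM is that CPM per kilobase of exon. Smarca4, the targeted gene, was at 87.4, 56.6, 86.8 and 105 CPM in mutants 1 to 4 and at 263, 245 and 279 CPM in controls 1 to 3, 3.12-fold lower in mutants (log2 fold change -1.64 ± 0.225 SE, edgeR adjusted p = 0.00967). Without 1 control its edgeR adjusted p was 0.0532 to 0.0612. Its counts cover the whole gene and not the floxed exons alone. Mutant 1 correlated with the other mutants at 0.811 to 0.887 across genes, against 0.893 to 0.961 among mutants 2 to 4 and 0.977 to 0.982 among controls. Members and genes named by the rule given further on are therefore shown with and without mutant 1 where their call or sign changed. For other genes of the pathway only the calls without it are given. Summed CPM of 9 epithelial markers was 8379 to 11475 in mutants and 16864 to 20913 in controls, with Cdh1 and Krt8 called lower, as were Dcn among the stromal and Ppbp among the platelet markers. The sum of 10 stromal markers was 166 to 475 against 548 to 696 CPM, that of 4 mesothelial markers 8.97 to 37.3 against 40.1 to 55.2, and that of 4 platelet markers 25.2 to 48.0 against 319 to 763, with Gp9 at 0 in all libraries. The part of these markers in the results was not tested, except where a value beside a result says more. In such bulk samples fewer cells of a type and less RNA per cell cannot be told apart.

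Of the 10 members, 1 passed the test, Inhbb, which fell, and none rose. The test was edgeR's quasi-likelihood F test on counts with Benjamini-Hochberg adjustment over all 14610 genes and a threshold of 0.05. Over all genes 11.5% passed in either direction, 6.18% lower and 5.37% higher in mutants, so that 1 of 10 is near this background. At an unadjusted p under 0.05 there were 2 members lower and 0 higher, where 31.0% of all genes were in either direction, 14.6% lower and 16.4% higher. The fold change was negative for 8 members and positive for 2, and the median of the 10 was -0.70 on the log2 scale beside 0.06 over all genes. The median over all genes depended on the scaling, with 0.20 under upper-quartile and 0.41 under total count scaling, where the members had -0.57 and -0.36. DESeq2 called 2 members lower, Inhbb and Tgfb1, limma-voom called 2 lower, Inhbb and Tgfb2, and neither called any higher. Over all genes DESeq2 called 23.6% (11.3% lower and 12.4% higher) and limma-voom 13.3% (7.95% lower and 5.35% higher). In 3 members, Tgfb1, Inhbb and Bmp4, every mutant library lay below every control library, and with total count scaling this held for Inhbb and not for Tgfb1 and Bmp4. Over all genes the groups did not overlap in 31.4%, with mutants lower in 16.1% and higher in 15.4%.

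**Figure D1:**
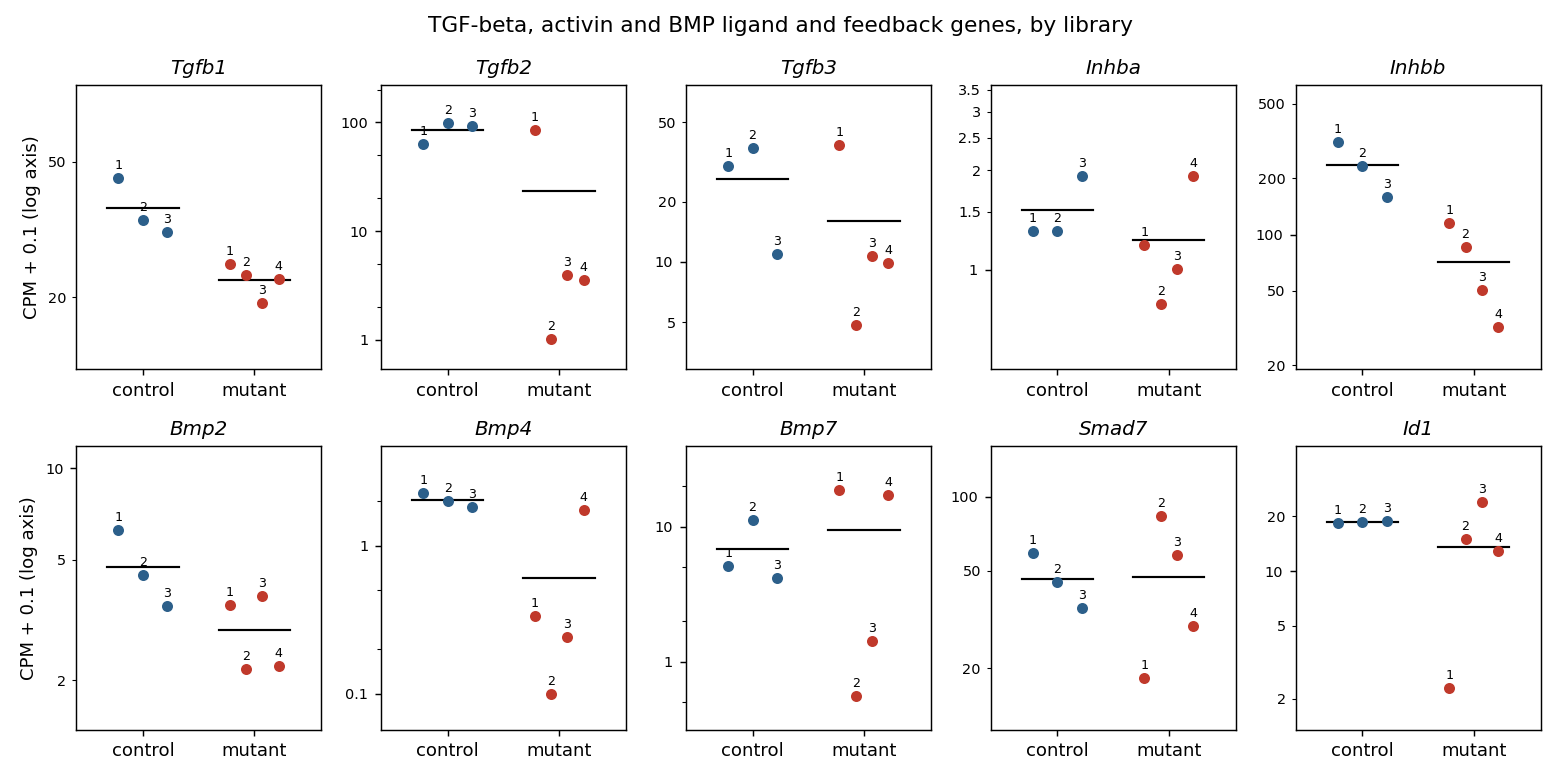
Levels of the 10 genes in each library, in CPM plus 0.1 on a log axis, for the 3 control and 4 mutant libraries; numbers beside points are replicates and bars are group means. The mutant points of Inhbb, Tgfb1 and Bmp4 lie below the control points, which holds for Inhbb alone of the 3 when scaled by total counts. Apart from Tgfb1 and Bmp2, the members spread more widely among mutants than among controls on the log scale. The median gene did so too (SD of log2 CPM 0.519 against 0.235).

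Per exon length, Inhbb was the highest of the 10 genes in both groups, with 55.3 ± 18.3 RPKM (SD, n = 3) in controls and 16.7 ± 8.74 RPKM (SD, n = 4) in mutants. Below it in controls came Id1 at 15.9 ± 0.156, Tgfb2 at 14.5 ± 3.25 and Smad7 at 10.2 ± 2.62 RPKM. Tgfb3 at 7.65 ± 3.96 and Tgfb1 at 7.23 ± 1.44 RPKM lay within 1 SD of each other. Of the remaining members, Bmp7 was at 1.67 ± 0.947, Bmp2 at 1.30 ± 0.395, Bmp4 at 0.858 ± 0.0971 and Inhba at 0.221 ± 0.0545 RPKM. Neighbours in this order that differed by less than the larger of their SDs were Id1 and Tgfb2, Smad7 and Tgfb3, Tgfb3 and Tgfb1, and Bmp7 and Bmp2, and the other neighbours lay further apart. In mutants the order began with Inhbb, Id1 at 11.6 ± 7.69 and Smad7 at 10.4 ± 6.46 RPKM, followed by Tgfb3 at 4.69 ± 4.49, Tgfb1 at 4.45 ± 0.479 and Tgfb2 at 4.04 ± 7.14. Neighbours in the mutant order from Inhbb down to Bmp7 (2.32 ± 2.43 RPKM) differed by less than the larger of their SDs, and below them came Bmp2 at 0.797 ± 0.241, Bmp4 at 0.224 ± 0.340 and Inhba at 0.177 ± 0.0770 RPKM.

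Inhbb encodes the activin beta-B subunit, which forms activin B as a homodimer and inhibin B with the alpha subunit. It lies on chromosome 1 at 119415465 to 119422248 of mm10, minus strand (ENSMUSG00000037035.5). Its level was 313, 234 and 158 CPM in controls 1 to 3 and 116, 86.0, 50.3 and 32.1 CPM in mutants 1 to 4. All 4 mutants lay below the lowest control, and mutant 4 was the lowest. The means were 235 ± 77.8 CPM (SD, n = 3) and 71.0 ± 37.2 CPM (SD, n = 4), 3.31-fold lower in mutants. In edgeR the log2 fold change was -1.73 ± 0.449 SE with an adjusted p of 0.0487. The groups also did not overlap when scaled by total counts, with mutants at 39.5 to 119 CPM and controls at 134 to 275 CPM. The call was at the edge of the threshold: the adjusted p was 0.0133 without mutant 1, 0.0705 to 0.112 without mutant 2, 3 or 4, and 0.111 to 0.185 without any of the controls. It was 0.00359 with DESeq2, and the authors' deposited table gives a log2 fold change of -1.72 with an adjusted p of 0.0163, in a table where 17.2% of 18092 genes have an adjusted p under 0.05.

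Inhba encodes the beta-A subunit of activin A and had few reads in this epithelium. Its reads numbered 23, 23 and 40 in the controls and 14, 9, 13 and 30 in the mutants, or 1.21, 1.21 and 1.82 CPM against 1.09, 0.689, 0.909 and 1.82 CPM. The groups overlapped, with mutant 4 level with the highest control. The log2 fold change was -0.32 ± 0.440 SE (edgeR adjusted p = 0.661), and it was positive, 0.063, with total count scaling.

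The balance of the activin subunits was taken within each library as the log2 of Inhba over Inhbb RPKM with 0.05 added to each. It was -8.27, -7.84 and -6.8 in controls and -6.94, -7.0, -5.95 and -4.5 in mutants. Inhbb exceeded Inhba in all 7 libraries, and mutants 1 and 2 lay within the control range. The mean was -7.64 ± 0.756 (SD, n = 3) in controls and -6.1 ± 1.17 (SD, n = 4) in mutants, a difference of 1.54 (exact permutation test, two-sided p = 0.171, adjusted over 3 ratios p = 0.229). Without mutant 4 the difference was 1.003, and with 0.5 added in place of 0.05 it was 1.70 and the groups no longer overlapped (exact permutation p = 0.0571). With 4 against 3 libraries and 35 arrangements the smallest p this test can give is 0.0571.

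Tgfb1 encodes the TGF-beta isoform that is best known for its control of growth and matrix. It lies on chromosome 7 at 25687002 to 25705077, plus strand (ENSMUSG00000002603.15). Its level was 44.7, 33.6 and 31.0 CPM in controls and 25.0, 23.1, 19.2 and 22.5 CPM in mutants. The groups did not overlap, and the 4 mutants lay closer together than for any other TGF-beta ligand. With total count scaling they did overlap, since mutant 4 was at 27.7 CPM and control 3 at 26.4 CPM. The means were 36.4 ± 7.26 CPM (SD, n = 3) and 22.5 ± 2.42 CPM (SD, n = 4), with a log2 fold change of -0.70 ± 0.198 SE. Tgfb1 did not pass the test of edgeR on 7 libraries (adjusted p = 0.0617), and passed without mutant 1 (adjusted p = 0.0373) and with DESeq2 (adjusted p = 0.0121). The authors' deposited table gives a log2 fold change of -0.69 with an adjusted p of 0.0295.

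Tgfb2, the isoform with a large part in epithelial to mesenchymal signalling in development, split the mutants. It lies on chromosome 1 at 186622792 to 186705989, minus strand (ENSMUSG00000039239.14). Controls were at 62.7, 97.5 and 92.3 CPM, mutant 1 was at 85.4 CPM, and mutants 2 to 4 were at 0.919, 3.84 and 3.46 CPM. Mutant 1 lay inside the control range, while the other 3 mutants differed from the control mean by -6.32, -4.38 and -4.53 on the log2 scale. The highest mutant exceeded the lowest 82.4-fold, and the SD of log2 CPM in mutants, 2.71, was at the 98.7th percentile of all tested genes (median SD 0.519). The 7 libraries gave a log2 fold change of -1.85 ± 1.33 SE that did not pass (edgeR adjusted p = 0.386). Without mutant 1 it was -4.88 and passed (edgeR adjusted p = 0.00306), and limma-voom on all 7 libraries gave -3.88 with an adjusted p of 0.0488.

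Tgfb3, the third isoform, lies on chromosome 12 at 86056745 to 86079041, minus strand. It was at 29.9, 36.8 and 10.9 CPM in controls and at 38.3, 4.75, 10.6 and 9.79 CPM in mutants. Mutant 1 was again the highest mutant, above all controls, and the other 3 mutants lay below the lowest control, mutants 3 and 4 only slightly. With total count scaling mutant 2 was still below control 3, the lowest control (4.96 against 9.32 CPM), but mutants 3 and 4 lay above it. On 7 libraries the log2 fold change was -0.70 ± 0.720 SE (edgeR adjusted p = 0.544), and without mutant 1 it was -1.58 (adjusted p = 0.0533). Smooth muscle markers, like Tgfb2 and Tgfb3, were highest in mutant 1 and lowest in mutant 2 among the mutants. Their summed CPM over 7 genes was 73.9, 6.51, 12.1 and 28.0 in mutants 1 to 4. Mutant 4 exceeded mutant 3 for these markers, but not for Tgfb2 or Tgfb3. In controls 1 to 3 the sum was 92.1, 58.6 and 59.9, where Tgfb2 was lowest in control 1 and Tgfb3 in control 3. The part of these markers in the result was not tested.

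In controls Tgfb2 made up 37.9% to 62.9% of the summed RPKM of the 3 isoforms, Tgfb1 19.4% to 31.1% and Tgfb3 12.8% to 31.6%. In mutant 1 the shares were 47.5% Tgfb2, 16.0% Tgfb1 and 36.5% Tgfb3. In mutants 2 to 4 Tgfb1 was the leading isoform at 74.5%, 50.1% and 56.1%, and Tgfb2 had 2.59%, 8.72% and 7.52%. The make-up of mutant 1 was led by Tgfb2, as in the controls, and that of the other mutants by Tgfb1. The log2 ratio of Tgfb2 to Tgfb1 RPKM was 0.29, 1.33 and 1.36 in controls and 1.56, -4.47, -2.44 and -2.8 in mutants. The means, 0.99 ± 0.614 (SD, n = 3) and -2.04 ± 2.56 (SD, n = 4), differed by -3.03, and the groups overlapped (exact permutation test, two-sided p = 0.229, adjusted over 3 ratios p = 0.229). Without mutant 1 the difference was -4.23.

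**Figure D2:**
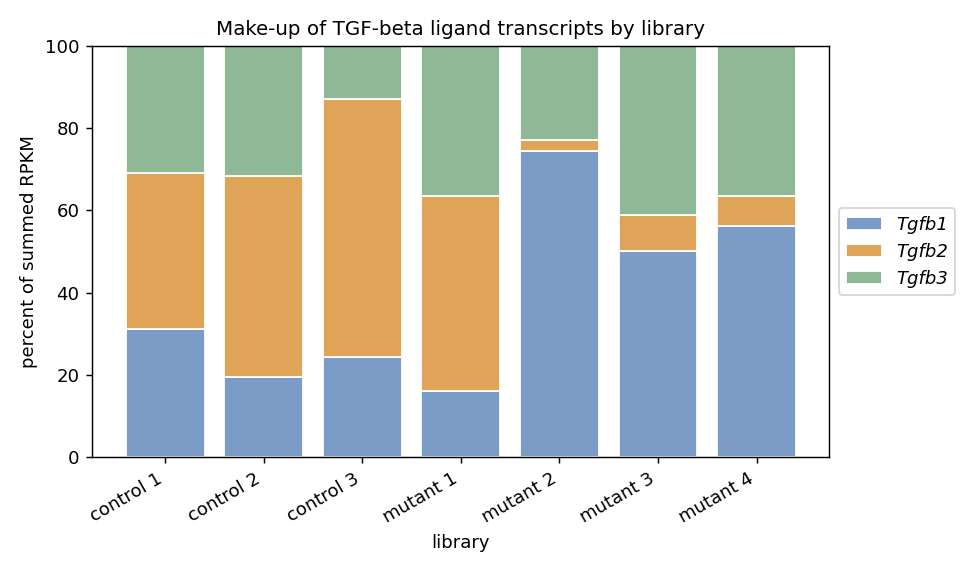
Share of Tgfb1, Tgfb2 and Tgfb3 in their summed RPKM, in percent, as 1 stacked bar per library. Tgfb2 takes 37.9% to 62.9% in controls and 47.5% in mutant 1, and 2.59% to 8.72% in mutants 2 to 4.

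Bmp2, which drives decidualisation of the stroma, lies on chromosome 2 at 133552159 to 133562885, plus strand. It was at 6.16, 4.33 and 3.40 CPM in controls and at 3.43, 2.07, 3.70 and 2.13 CPM in mutants. Mutants 1 and 3 lay just above the lowest control. This gave a log2 fold change of -0.71 ± 0.372 SE and an adjusted p of 0.240 in edgeR.

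Bmp4, a ligand close to BMP2 in sequence, lies on chromosome 14 at 46383520 to 46390669, minus strand. It had 41, 36 and 38 reads in controls and 3, 0, 2 and 27 reads in mutants. In CPM these were 2.16, 1.90 and 1.72 against 0.234, 0, 0.140 and 1.64. Mutants 1 to 3 were at or under the limit of 3 reads that a count of 0 allows, 0.21 to 0.234 CPM in these libraries for counting error only. Mutant 4 lay near the controls, below them with TMM scaling and above control 3 with total count scaling (2.02 against 1.47 CPM). The mesothelial markers were also highest in mutant 4, with summed CPM of 8.97, 18.3, 12.9 and 37.3 in mutants 1 to 4, and their part in the result was not tested. The log2 fold change was -1.88 ± 1.03 SE (edgeR adjusted p = 0.259), and without mutant 4 it was -3.86 (adjusted p = 0.0403).

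Bmp7, which takes part in epithelial development, lies on chromosome 2 at 172868012 to 172940321, minus strand. It was at 5.0, 11.1 and 4.08 CPM in controls and at 18.4, 0.460, 1.33 and 17.1 CPM in mutants. Mutants 1 and 4 lay above all controls and mutants 2 and 3 below them, a 32-fold range whose SD was at the 98.2nd percentile of all genes. Bmp7 had a log2 fold change of 0.47 ± 1.12 SE and an adjusted p of 0.809 in edgeR, and its sign was negative without mutant 1 (-0.019) and with limma-voom (-0.62). Summed CPM of 7 endothelial markers had the same order among the mutants, at 24.2, 4.9, 6.08 and 22.4 CPM in mutants 1 to 4. For the endothelial markers mutants 1 and 4 lay within the control range of 20.4 to 26.6 CPM, and for Bmp7 above the controls. The sum of 7 smooth muscle markers had that order too, at 73.9, 6.51, 12.1 and 28.0 CPM in mutants 1 to 4. Its control range was 58.6 to 92.1 CPM. Of the epithelial markers, Cldn3, Cldn4 and Krt18 were likewise higher in mutants 1 and 4 than in mutants 2 and 3. Krt7, Krt19 and Muc1 were lower there. The part of these markers in the result was not tested.

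The log2 ratio of Bmp7 to Bmp4 RPKM was 0.36, 1.65 and 0.38 in controls and 4.91, 1.72, 1.76 and 2.47 in mutants. Every mutant lay above every control, mutants 2 and 3 only slightly. Mutant 2 had no Bmp4 read, so that its ratio rests on the 0.05 added. Mutants 1 and 3 had 3 and 2 Bmp4 reads, so that their ratios also depend on it. The means were 0.8 ± 0.738 (SD, n = 3) and 2.71 ± 1.5 (SD, n = 4), a difference of 1.92. The exact permutation test gave a two-sided p of 0.0571, the smallest it can give here, and 0.171 adjusted over 3 ratios, so the difference did not pass. With 0.5 added it was 0.87 and the groups overlapped (exact permutation p = 0.286), and without mutant 1 it was 1.19.

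Smad7 and Id1 report on signalling from the other side: SMAD7 is induced by TGF-beta and blocks its receptors, and ID1, an inhibitor of helix-loop-helix factors, is a direct target of BMP signalling. Smad7 was at 58.6, 44.9 and 35 CPM in controls and at 18.1, 83.0, 57.9 and 29.5 CPM in mutants. Mutants 1 and 4 lay below the controls, mutant 2 above them and mutant 3 within their range. Smad7 had a log2 fold change of 0.03 ± 0.499 SE and an adjusted p of 0.975 in edgeR, and its sign turned without mutant 2 (-0.38), mutant 3 (-0.075) or control 3 (-0.12) and with limma-voom (-0.17), while without mutant 1 the value was 0.34.

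Id1 lies on chromosome 2 at 152736251 to 152737410, plus strand. It was at 18.2, 18.5 and 18.6 CPM in the controls and at 2.18, 14.8, 23.9 and 12.8 CPM in the mutants. The controls differed so little that their SD of log2 CPM, 0.0139, was at the 0.424th percentile of all genes, while that of the mutants was 1.48. With 346, 350 and 409 control reads this SD is smaller than counting error alone would give, so it does not measure how steady the gene is. The controls were also pools and the mutants single mice. On the log2 scale mutant 1 differed from the control mean by -3.01 and mutant 3 by 0.37. Between the groups the log2 fold change was -0.46 ± 0.627 SE (edgeR adjusted p = 0.657). It was -0.065 without mutant 1 and -0.88 without mutant 3.

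**Figure D3:**
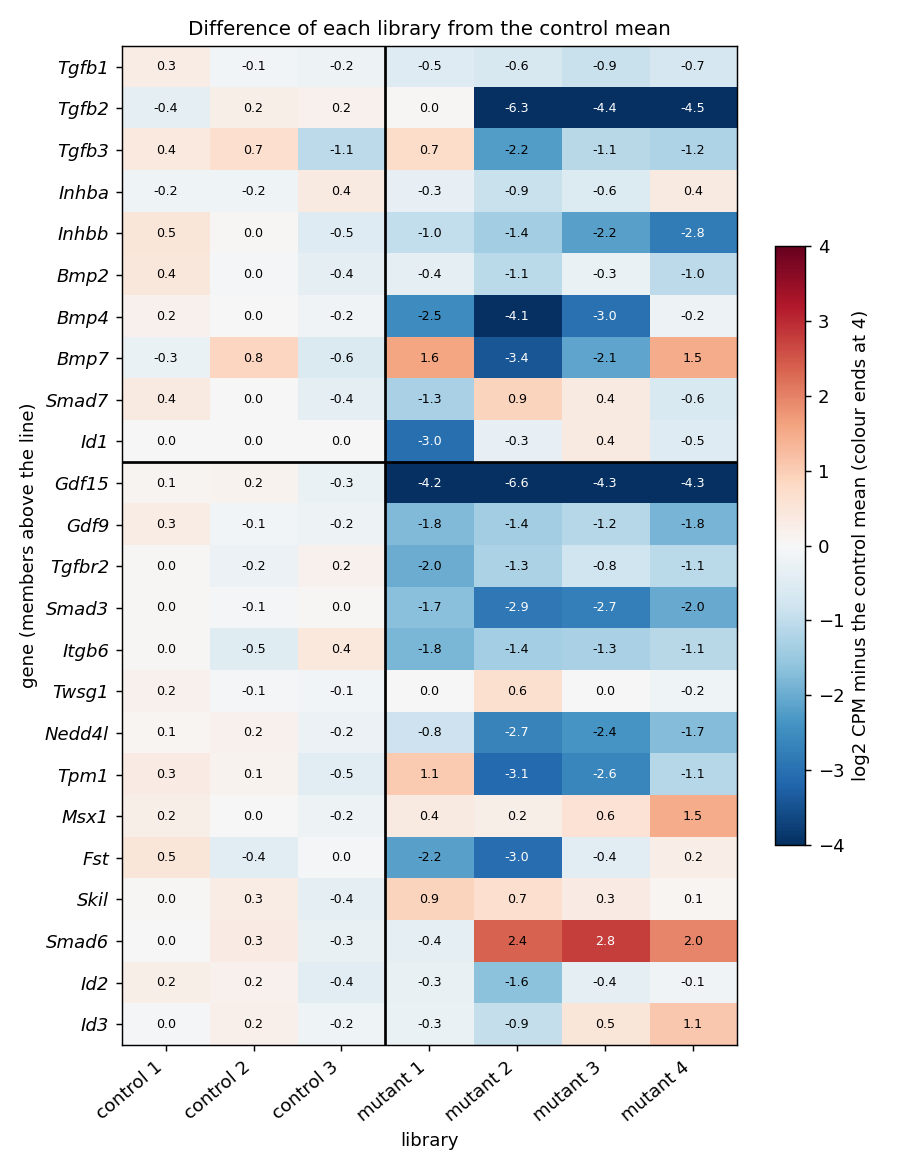
Log2 CPM of each library minus the mean of the 3 controls, for the 10 members (above the line) and for other named genes of the pathway (below it); blue is lower and red is higher than the control mean. Mutant 1 is near 0 for Tgfb2 and lowest for Id1, and mutants 2 to 4 are -6.32, -4.38 and -4.53 for Tgfb2.

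The members varied among the mutants in several ways. Inhbb and Tgfb1 were below the control mean in 4 of 4 mutants, with log2 differences of -0.97, -1.39, -2.17 and -2.81 for Inhbb and of -0.52, -0.64, -0.90 and -0.67 for Tgfb1. Bmp2 and Bmp4 were also below the control mean in all 4 mutants. Over the 7 libraries, as a description in which group and library differences are mixed, Pearson's r of log2 CPM was 0.90 for Tgfb1 with Inhbb, 0.84 for Tgfb2 with Tgfb3, 0.83 for Inhba with Bmp4, 0.75 for Smad7 with Id1 and -0.84 for Bmp7 with Smad7. Without mutant 1, 3 members passed the test of edgeR, Inhbb, Tgfb1 and Tgfb2, all lower, where 29.5% of 14903 genes passed in either direction and 14.0% lower.

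The other genes of the pathway were taken from lists by role, 105 genes in 8 lists, of which 77 were tested. None rose and 6 fell, Gdf15, Gdf9, Tgfbr2, Smad3, Itgb6 and Nedd4l, where 6.18% of all genes fell. At an unadjusted p under 0.05, 4 were higher and 20 lower, where 31.0% of all genes were in either direction. The median log2 fold change of the 77 was -0.48, with 21 positive and 56 negative values, beside 0.06 over all genes. With total count scaling 4 passed higher and 4 lower, and the median was -0.16. Under that scaling 2734 of all 14610 genes passed, 80.5% of them higher, and the median over all genes was 0.41. DESeq2 called 3 higher and 14 lower, where it called 23.6% of all genes. Without mutant 1 edgeR called 3 higher, Bmpr1a, Pcsk5 and Smad6, and 20 lower of 78, where 29.5% of all genes passed and 14.0% passed lower. The 20 were 3 each of the other ligands, receptors, Smads, latency genes, secreted antagonists and TGF-beta and activin targets, and 2 brakes. Without a control edgeR called 1, where 133 to 169 genes passed in all.

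Among 25 other ligands 8 were tested and 2 fell, where 6.18% of all genes did, with a median log2 fold change of 0.005. Gdf15, a distant family member induced by cell stress, was at 740, 758 and 569 CPM in controls and at 38.4, 6.82, 35.1 and 33.9 CPM in mutants. All mutants lay far below the controls, mutant 2 lowest. Its mean was 24.1-fold lower in mutants (log2 fold change -4.59 ± 0.566 SE, edgeR adjusted p = 0.00712). It passed without each library in turn (adjusted p 0.00251 to 0.0408). Gdf9, best known from the oocyte, was at 5.0, 3.75 and 3.49 CPM in controls and at 1.09, 1.46, 1.75 and 1.03 CPM in mutants (log2 fold change -1.61 ± 0.343 SE, edgeR adjusted p = 0.0297). Gdf9 kept its call without mutant 1 and lost it without any other library (adjusted p 0.0525 to 0.141) and without the low count filter (0.065).

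Of 17 receptors and co-receptors 16 were tested and 1 fell, where 6.18% of all genes did, with a median of -0.43. The receptor that fell was Tgfbr2, the type II receptor that binds TGF-beta. Its level was 384, 320 and 421 CPM in controls and 93.8, 155, 212 and 177 CPM in mutants. No mutant reached the lowest control (log2 fold change -1.23 ± 0.281 SE, edgeR adjusted p = 0.0344). It passed without mutant 1 (adjusted p = 0.00967) and not without any other library (0.051 to 0.137) or with total count scaling (0.0874). The authors' deposited table gives it a log2 fold change of -1.22 and an adjusted p of 0.000925.

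Of 6 Smads 5 were tested and 1 fell, where 6.18% of all genes did, with a median of -0.62. Smad3, the transcription factor activated by TGF-beta and activin receptors, was at 551, 510 and 550 CPM in controls and at 167, 73.3, 80.8 and 132 CPM in mutants. The controls were close together and the mutants were all well below them (log2 fold change -2.24 ± 0.312 SE, edgeR adjusted p = 0.00982). Leaving out mutants gave adjusted p-values of 0.00306 to 0.0297, and leaving out a control 0.0532 to 0.0612.

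All 14 genes of latency and processing were tested, and 1 fell, where 6.18% of all genes did, with a median of -0.998. At an unadjusted p under 0.05, 7 were lower and 1 higher, where 14.6% of all genes were lower and 16.4% higher. Itgb6, the beta subunit of the integrin that frees latent TGF-beta on epithelia, was at 248, 173 and 320 CPM in controls and at 68.0, 94.0, 97.3 and 112 CPM in mutants. The groups were well apart (log2 fold change -1.41 ± 0.261 SE, edgeR adjusted p = 0.0200), and the call was lost without mutant 3 (0.0544) or any control (0.053 to 0.0952).

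Of 15 secreted antagonists 7 were tested and edgeR called 0, with a median of -0.85, 2 at an unadjusted p under 0.05 and 1 called lower by DESeq2. Over all genes edgeR called 11.5%, 31.0% had such an unadjusted p and DESeq2 called 11.3% lower. Without mutant 1 edgeR called 3 of the 7 lower, Fstl3, Chrd and Nbl1, where 29.5% of all genes passed and 14.0% passed lower. Twsg1, which binds BMPs, had the highest level of the list, with 150, 128 and 125 CPM in controls and 133, 209, 134 and 119 CPM in mutants (log2 fold change 0.15 ± 0.230 SE, edgeR adjusted p = 0.696). Fst, follistatin, the main antagonist of activin, was at 151, 80.7 and 105 CPM in controls and at 24.0, 13.1, 80.3 and 129 CPM in mutants. Mutants 1 and 2 lay below the controls, mutant 3 just under the lowest of them and mutant 4 within their range (log2 fold change -0.87 ± 0.719 SE, edgeR adjusted p = 0.450). Nog, the BMP antagonist noggin, did not pass the filter, with 0.0528 to 0.263 CPM in controls and 0 to 0.210 CPM in mutants.

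All 11 intracellular and membrane brakes were tested and 1 fell, where 6.18% of all genes did, with a median of -0.24. Nedd4l, a ubiquitin ligase that acts on activated SMAD2 and SMAD3, was at 423, 456 and 341 CPM in controls and at 228, 63.9, 78.4 and 121 CPM in mutants. Mutant 1 was the highest mutant and still below all controls (log2 fold change -1.73 ± 0.432 SE, edgeR adjusted p = 0.0443). The call was kept without mutant 1 (0.00483) and lost without any other library, with upper-quartile scaling (0.0513) and with total count scaling (0.0535). Smad6, the brake on BMP receptors, was at 3.58, 4.59 and 2.95 CPM in controls and at 2.81, 19.1, 25.3 and 14.4 CPM in mutants. Mutants 2 to 4 lay above the controls and mutant 1 below them. The log2 fold change was 2.05 ± 0.667 SE (edgeR adjusted p = 0.0877), and without mutant 1 it was 2.44 and passed (adjusted p = 0.00448). Skil, a repressor of Smad activity that TGF-beta induces, was at 241 to 386 CPM in controls and 328 to 573 CPM in mutants (log2 fold change 0.50 ± 0.264 SE, edgeR adjusted p = 0.243).

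All 10 TGF-beta and activin targets were tested, edgeR called 0, DESeq2 called 1 lower and limma-voom 0, with a median of -0.27 and 2 lower at an unadjusted p under 0.05. Over all genes 14.6% were lower at such an unadjusted p, and edgeR called 6.18%, DESeq2 11.3% and limma-voom 7.95% lower. Tpm1, a tropomyosin and the highest of these targets, was at 1807, 1582 and 1051 CPM in controls and 3017, 166, 235 and 656 CPM in mutants. Mutant 1 lay above the controls and the other mutants below (log2 fold change -0.54 ± 0.941 SE, edgeR adjusted p = 0.734). Without mutant 1 it was -2.01 and passed (adjusted p = 0.0315). In that fit edgeR called 3 of the 10 targets lower, Ccn2, Tagln and Tpm1, where 29.5% of all genes passed and 14.0% passed lower. Among the mutants the smooth muscle markers, with 73.9 CPM in mutant 1 and 6.51, 12.1 and 28.0 CPM in mutants 2 to 4, followed the order of Tpm1. So did the endothelial markers, with 24.2, 4.9, 6.08 and 22.4 CPM. In controls 1 to 3 the smooth muscle sum was 92.1, 58.6 and 59.9 CPM and the endothelial sum 24.1, 26.6 and 20.4 CPM. Neither followed the order of Tpm1 in the controls, and the part of these markers in the result was not tested.

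Of 7 BMP targets 6 were tested and 0 were called by edgeR, by DESeq2 or by limma-voom, with 0 at an unadjusted p under 0.05 in edgeR and a median of -0.34. Over all genes edgeR called 11.5%, DESeq2 23.6% and limma-voom 13.3%, and 31.0% had such an unadjusted p. With 6 genes, 0 calls by edgeR is near this background. Msx1, a homeobox gene of the uterine epithelium, was at 107, 90.8 and 79.2 CPM in controls and 119, 107, 136 and 256 CPM in mutants (log2 fold change 0.74 ± 0.331 SE, edgeR adjusted p = 0.175). The mutants were mostly above the controls and met them at 107 CPM. Id2 and Id3, the relatives of Id1, had log2 fold changes of -0.55 ± 0.360 SE (edgeR adjusted p = 0.342) and 0.28 ± 0.454 SE (adjusted p = 0.714). Id2 was at 77.4 to 121 CPM in controls and 32.8 to 93.9 CPM in mutants, and Id3 at 14.8 to 19.1 and 8.58 to 35 CPM, so that both overlapped.

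**Figure D4:**
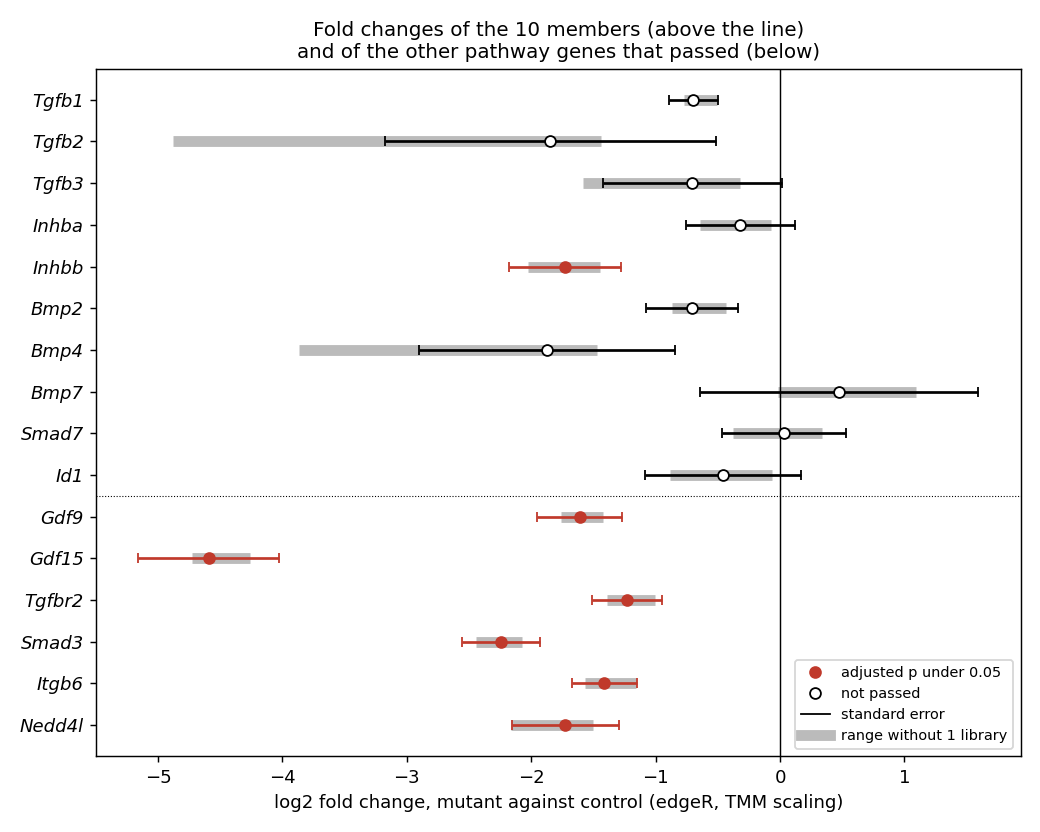
Log2 fold changes of mutants against controls with their SE for the 10 members (above the line) and the 6 other pathway genes that passed the test (below it); filled red points passed and open points did not, black or red bars are the SE, and grey bands span the values when single libraries were left out. All 7 filled points are negative, and the span of Tgfb2 reaches -4.88 without mutant 1.

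The genes most like each member were found by Pearson's r of log2 CPM over the 7 libraries among 10403 protein-coding genes with a mean of at least 5 CPM, as a description in which all genes share the libraries and their depth. For Inhbb these were Fmn1 and Ugcg (r = 0.989 for both), for Inhba Tom1l1 (0.972) and Dtna (0.953). For Tgfb1 they were Nr2c2 (0.984) and Nek8 (0.976), for Tgfb2 Gm7298 (0.995) and Pabpn1 (0.992), and for Tgfb3 Btaf1 (0.982) and Neo1 (0.98). For Bmp2 they were Ythdc2 (0.966) and Lrp5 (0.96), for Bmp4 P4ha2 (0.988) and Dnmbp (0.984), and for Bmp7 Acot1 (0.996) and Usp54 (0.995). For Smad7 they were Emp3 (0.982) and Dsel (0.981), and for Id1 Cryl1 (0.994) and E130309D02Rik (0.992). Neo1, a receptor for repulsive guidance molecules that act as BMP co-receptors, and Lrp5, a Wnt co-receptor, are known from signalling.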

How the data were processed

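Messenger RNA was sequenced from EpCAM-selected endometrial epithelium with a strand-specific KAPA kit, per the labels' protocols. The authors deposited, per library, a table of whole-number counts of reads per gene in an unstranded and 2 stranded columns. The submitters' processing notes name STAR and the build mm10, cutadapt, Trim Galore and FastQC for the reads, and DESeq2. The sources used here give no versions. The authors also deposited a table of their comparison, with log2 fold changes, p-values and adjusted p-values, of which a few are quoted. The quoted log2 fold changes are those without shrinkage. Its shrunken log2 fold changes, a further column of adjusted p-values (IHW), its mean signal per gene, its test score and a weight, as deposited by the authors, were not used.

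Reverse-stranded counts were used, which held 94.77% to 95.6% of both stranded columns. Of 53379 gene IDs, 53274 matched GENCODE M21 (GRCm38), the source of symbols, coordinates and exon lengths. Rows that name no gene (unmapped reads 3.90% to 6.70%, multimapping 8.45% to 11.2%, no feature 10.5% to 14.7%, ambiguous 0.827% to 1.29%) stayed out. After filterByExpr, edgeR 4.0.16 in R 4.3.3 gave two-sided quasi-likelihood F tests (TMM scaling, genotype as the model, Benjamini-Hochberg over 14610 genes). The fold changes of the fit were checked on simulated counts drawn with the same spread in both groups. In the real libraries the median SD of log2 CPM was 0.519 in mutants and 0.235 in controls, which that check does not cover. CPM is per 1000000 TMM-scaled gene reads, with factors of 1.03 to 1.23 in mutants and 0.852 to 0.886 in controls. Alternatives included DESeq2 1.42.0 and limma 3.58.1 (voom). Ratios of RPKM (pseudocount 0.05) were tested with exact permutation in scipy 1.17.1. Since mutants are single mice and controls pools, the p-values rest on the spread among these 7 libraries.

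The members and the lists were chosen with earlier results of these data known, so no test over a list was made. Genes are named by a rule: the members, the targeted gene, up to 5 genes past the threshold in each list or otherwise its highest gene, and Fst, Nog, Skil, Smad6, Id2 and Id3. Beyond these, 1 gene is not reported here. Marker sums are of TMM-scaled CPM, and immune markers were at 264 to 509 in mutants and 391 to 501 in controls.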

Additional observations from a re-analysis of the deposited data

Results flagged for a closer look

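A library far from the others was sought among the 4 mutants for 24 genes (log2 CPM) and 3 log2 ratios, as the gap of the highest or lowest value to its neighbour over the whole range, against Dixon's critical value. In Gdf15 the lowest mutant, replicate 2 at 6.82 CPM, stood apart with 0.927. Chance passes the critical value in about 5% of groups, and 1 of 27 did.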

How the results depend on the processing

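Of all genes 1687 passed in the 7 libraries, with 2734 under total count scaling (80.5% of them higher, against 46.5%), 3423 with DESeq2, 1944 with limma-voom, 1057 without a low count filter, and 133 to 4403 when 1 library was left out, the fewest without control 1 and the most without mutant 1. With upper-quartile scaling 62.6% were higher. Of the members 1 passed, with 0 under upper-quartile scaling and under a minimum mean of 1 CPM, 2 with DESeq2 and with limma-voom, and 0 to 3 when 1 library was left out: 0 without mutants 2 or 3 or any control, 1, Bmp4, without mutant 4, and 3 without mutant 1. Of the other pathway genes 6 passed, with 17 under DESeq2 and 1 to 23 when 1 library was left out. The Inhbb adjusted p was 0.0538 under upper-quartile scaling and 0.0501 with a minimum mean of 1 CPM. The 3 ratios kept their direction under all 10 alternatives each, and no arrangement of these libraries could have passed the threshold.

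Signs turned as follows, as log2 fold changes. Inhba was 0.063 with total count scaling. Bmp7 was -0.62 with limma-voom and ran from -0.019 without mutant 1 to 1.09 without control 2. Smad7 was -0.17 with limma-voom and ran from -0.38 without mutant 2 to 0.34 without mutant 1, with -0.075 without mutant 3 and -0.12 without control 3. Twsg1 ran from -0.051 without mutant 2 to 0.26 without control 1, and Id3 from -0.12 without mutant 4 to 0.54 without mutant 2. The cause was not tested.

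Replicate numbers 1 to 3 occur in both groups but label separate mice and pools. Deviations of same-numbered libraries correlated at -0.02, -0.36 and 0.16, which gave no pairing. With the replicate number as a block, which leaves fewer degrees of freedom, 2 genes passed in all, 0 members and 0 other pathway genes. In that fit Bmp7 was -1.36 and Id3 -0.24.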

Other observations

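Some further genes of the pathway lists were chosen after their values were seen and are given as values only. Bmp8a was at 18.2, 11.5 and 29.0 CPM in controls and at 0.312, 6.13, 1.33 and 0.122 CPM in mutants, without overlap (log2 fold change -3.31 ± 1.10 SE, edgeR adjusted p = 0.0929). It shares 8.74% of its 50-base words with Bmp8b, so its counts are uncertain. The BMP receptors Bmpr1a and Bmpr1b lay on opposite sides: Bmpr1a was at 80.2, 68.9 and 66.0 CPM in controls and 86.9, 122, 116 and 91.8 CPM in mutants (0.54 ± 0.189 SE, edgeR adjusted p = 0.105), and Bmpr1b was at 21.6, 28.6 and 24.3 CPM in controls and 10.4, 0.383, 2.10 and 8.33 CPM in mutants (-2.23 ± 0.859 SE, adjusted p = 0.130). The difference between the receptors was not tested. Pcsk5, a convertase that cleaves ligand precursors, was at 3.11 to 3.80 CPM in controls and at 3.82, 12.8, 34.3 and 4.26 CPM in mutants (2.01 ± 0.802 SE, edgeR adjusted p = 0.139). Chrd, the BMP antagonist chordin, was at 25.1, 35.1 and 33.5 CPM in controls, 79.6 CPM in mutant 1 and 2.37, 1.75 and 5.35 CPM in mutants 2 to 4. Its log2 fold change was -0.49 ± 1.25 SE (edgeR adjusted p = 0.824). Without mutant 1 edgeR called Chrd lower, and Bmpr1a and Pcsk5 higher.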
